A study of Mus musculus with 2 samples.

Results

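Toll-like receptors and the first proteins of their signalling route were examined in epithelial cells of the mouse submandibular gland at a young and an old age. The set comprises 10 genes chosen by name, namely the surface receptors Tlr1, Tlr2, Tlr4 and Tlr5, the endosomal receptors Tlr3, Tlr7 and Tlr9, the co-receptor Cd14 and the adaptors Myd88 and Ticam1, among 37003 genes on the array. They are covered by 18 probes, and 14 probes of 9 genes stood well above background on 1 or both arrays. The cells were collected for EpCAM, an adhesion protein of epithelia, on magnetic beads from submandibular glands of female C57BL/6 mice (C57BL/6N in the study's methods), with no treatment named. The young mice were 9 weeks old and came from a breeder, whereas the aged mice were 24 months old and came from the authors' own facility, so that age and source cannot be told apart. RNA from each age was hybridized to 1 Agilent array with 60-base probes, and no difference given here has a replicate check. How many mice each RNA came from is not given in the sources used here.

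Toll-like receptors recognize molecules of microbes. Those at the cell surface bind lipids and proteins of the microbial envelope, whereas the endosomal ones bind nucleic acids that reach the endosome. Signals pass through the adaptor MyD88, or through TRIF (encoded by Ticam1) for TLR3 and for internalized TLR4, and lead to NF-kappaB and interferon regulatory factors, which switch on cytokine and chemokine genes. The receptors are known from macrophages and dendritic cells, and salivary gland epithelia are known to express some of them too.

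Levels are processed scanner signals, and each signal is given with the error that the scanner software assigns to it. A difference is the log2 signal over the 75th percentile of the aged array minus that of the young array, so that -1 is 2-fold lower and 1 is 2-fold higher in aged cells. Errors of differences combine the errors of both spots and do not include the spread between mice. The 75th percentiles were 256 (young) and 198 (aged). The scanner software marks spots well above background, the lowest of which had signals of 14.1 (young) and 14.3 (aged), and a probe without this mark gives only a limit. The brightest probe stands for a gene where several were kept, and signals of different probes have no common scale. For 271 probes spotted repeatedly, the SD of the difference over their spots had a median of 0.033 on the log2 scale.

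Tlr3 and Tlr7 have probes on either side of 2-fold and Tlr4 has probes far apart in the genome, and their sequences are therefore shown first, with Tlr2 as the receptor with the largest difference by its brightest probe. For each, bases 1 to 30 of 60 are printed 5′ to 3′ as the files write them, and capitals mark a run of at least 10 bases in which 2 letters alternate.
Tlr2, A_51_P452629: ccttggatgaaggccagcaggaagtgtttt
Tlr4, A_55_P2714823: tcttccatagtttgtgcttcatgtccctgc
Tlr4, A_51_P300806: tgtgatagggctttaaatagttgagctaat
Tlr4, A_55_P2603039: ccagagtttttccccaggaagtttctctgg
Tlr3, A_55_P2921249: aaatcagaatgtacttggctttggaggttg
Tlr3, A_52_P85174: taatgctcatttttgagacgtttatagaat
Tlr7, A_55_P2050932: TCTCTCTCTCTgatactgaactgtaccaga
Tlr7, A_55_P2129047: cataaatgaaggtctgaatttttcctaaca
Tlr7, A_55_P2129046: atgtaatgctgcttctgtatcttaaaaact
Among the 18 probes of the set, A_55_P2050932 alone held such a run, of 11 bases. No probe of the set shared 20 or more bases in a row with a probe of another gene on the array.

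In the build of the files (mm9), the Tlr2 probe lies at chr3:83640344-83640403 on the minus strand, from base 2645 of its transcript. The Tlr3 probes lie at chr8:46495198-46495257, from base 174, and at chr8:46481729-46481788, from base 3557, on the minus strand. The Tlr7 probes lie on the minus strand at chrX:163742863-163742922 (A_55_P2050932, from base 3878), chrX:163743146-163743205 (A_55_P2129047, from base 3595) and chrX:163747214-163747273 (A_55_P2129046, from base 254). On the plus strand of chromosome 4, the Tlr4 probes A_55_P2603039 and A_51_P300806 lie at chr4:66500344-66500403 and chr4:66503724-66503782, from bases 619 and 3999 of the RefSeq transcript. The third Tlr4 probe, A_55_P2714823, was designed on the Ensembl transcript ENSMUST00000107365 and lies at chr4:66591199-66591258, which is 87417 bases beyond the nearest other Tlr4 probe. Exons and UTRs of mm9 were not analysed here.

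**Figure D1:**
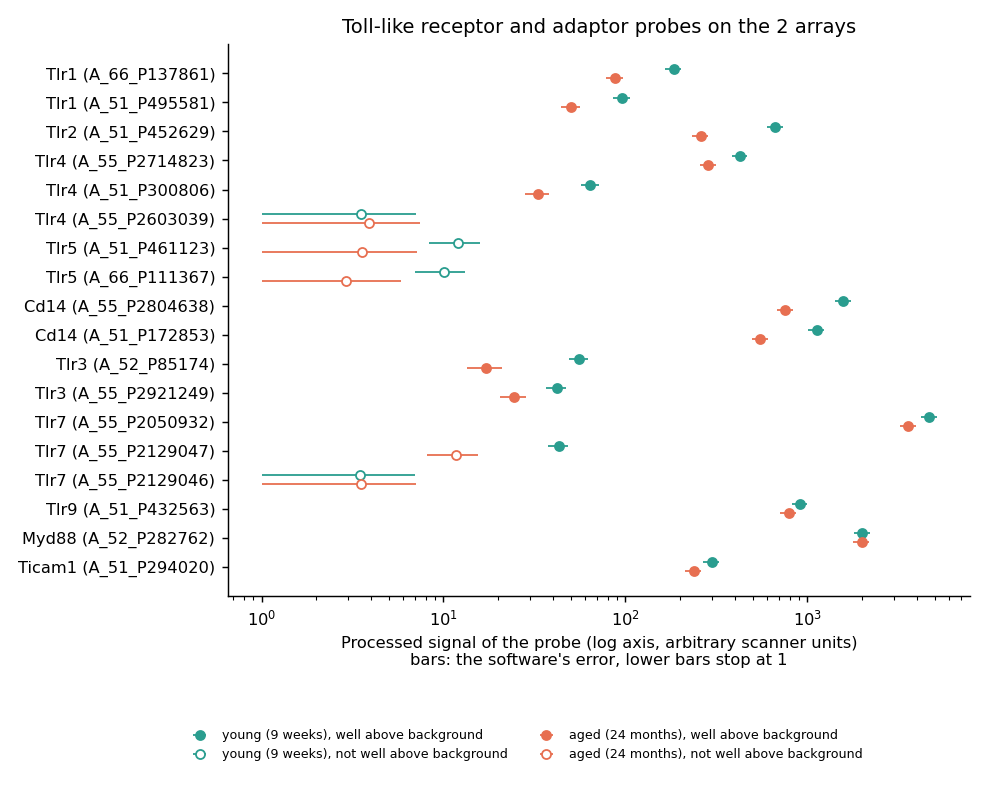
Processed signal of each of the 18 probes for both ages (log axis, arbitrary scanner units), with bars for the software's error and open circles for signals not well above background. The Tlr2, Tlr1 and Cd14 probes sit lower on the aged array, the Myd88 signals lie at 2004 and 1985, and both Tlr5 probes are open on both arrays.

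The surface receptors that were measured had lower values in aged than in young cells. Tlr2, the receptor for bacterial lipoproteins, gave a signal of 664 ± 66.5 in young and 260 ± 26.2 in aged cells. The difference was -0.98 ± 0.21, or 1.97-fold lower, just inside the 2-fold threshold that the study's methods name. Of the 18745 genes measured on both arrays, 3.17% had a difference as low as that of Tlr2 or lower. Tlr1, which pairs with TLR2 to bind triacylated lipoproteins, gave 184 ± 18.8 and 87.3 ± 9.40 by its brightest probe, a difference of -0.71 ± 0.21. Its other probe gave 95.9 ± 10.2 and 50.4 ± 6.18, a difference of -0.56 ± 0.23. Both Tlr1 probes thus gave the same direction with a like size. The brightest lies at chr5:65315994-65316053 and the other at chr5:65316115-65316174, next to each other in the gene.

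Tlr4, the receptor for bacterial lipopolysaccharide, was lower in aged cells by both measured probes, and neither passed 2-fold. The distant probe A_55_P2714823, whose place in the Tlr4 transcript was not tested, gave 426 ± 42.7 and 285 ± 28.6, a difference of -0.21 ± 0.20. Within the RefSeq transcript, A_51_P300806 gave 64.1 ± 7.36 and 33.0 ± 4.92, a difference of -0.59 ± 0.27. A_55_P2603039 was well above background on neither array, with 3.53 and 3.91. The gap between the measured probes was smaller than the sum of their errors. Tlr5, the flagellin receptor, was well above background on neither array by either of its probes. Its signals were 12.1 and 10.01 in young and 3.58 and 2.92 in aged cells, and no fold can be given.

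Cd14, which hands lipopolysaccharide to the complex of TLR4 and MD-2 and also assists TLR2, resembled Tlr1 and Tlr2 in direction. Its brightest probe gave 1578 ± 158 in young and 755 ± 75.6 in aged cells, a difference of -0.69 ± 0.20. The other probe gave 1125 ± 113 and 550 ± 55.1, a difference of -0.66 ± 0.20. These 2 probes differed from each other by less than their errors.

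For Tlr3 and Tlr7, whether 2-fold was passed turned on the probe. Tlr3, which binds double-stranded RNA and signals through TRIF, gave 42.0 ± 5.21 in young and 24.5 ± 3.97 in aged cells by A_55_P2921249, near the 5′ end of the transcript. This is a difference of -0.40 ± 0.29. By A_52_P85174, from base 3557, the signals were 55.7 ± 6.44 and 17.2 ± 3.70, a difference of -1.32 ± 0.35, or 2.50-fold lower. The aged signal of this probe is close to the lowest signal well above background. Both Tlr3 probes were lower in aged cells, the second by over 2-fold. A_52_P85174 was the brighter on the young array, and A_55_P2921249 stands for the gene only because its mean over both arrays was slightly higher. Whether Tlr3 counts among genes past 2-fold therefore rests on this ranking.

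Tlr7, a receptor for single-stranded RNA, had the widest gap between probes in the set. A_55_P2050932, with the run of 11 alternating bases, gave 4671 ± 467 in young and 3573 ± 357 in aged cells, a difference of -0.01 ± 0.20. A_55_P2129047, which lies in the same part of the transcript, gave 43.0 ± 5.47 in young cells and was not well above background in aged cells, with 11.7. It was therefore at least 2.33-fold lower in aged cells, a limit of -1.22 on the log2 scale. A_55_P2129046 was well above background on neither array, with 3.48 and 3.53. Tlr9, which binds unmethylated CpG DNA, has a single probe (chr9:106128979-106129038), which gave 911 ± 91.1 and 788 ± 78.8. Its difference of 0.16 ± 0.20 was within its error and lay below 0 when spike-in controls set the level of both arrays.

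Probes with an alternating run were brighter than others on these arrays. As written on the probe strand, 5 repeats of TC in a row (TCTCTCTCTC) occurred in 43 of 56605 probes (0.0760%), and 95.3% of the 43 were well above background on the young array, against 53.4% of all probes. Their median signal was 4819 in young and 4134 in aged cells, against 21.3 and 14.6 for all probes. Of the 41 that both arrays measured, 0 passed 2-fold in either direction, and their median difference was 0.23. Of all 26749 probes that both arrays measured, 750 were 2-fold lower and 377 were 2-fold higher, with a median difference of 0.09. At that share few of 41 probes would pass, so the 0 is not read as a result about the run. Over any alternating run of 10 bases or more, there were 404 probes, and of the 327 measured on both arrays, 1 was 2-fold lower and 1 was 2-fold higher. Among the 26422 measured probes without such a run, 749 were 2-fold lower and 376 were 2-fold higher, a larger share in each direction. The cause of this was not tested. The part of the run in the Tlr7 signal was not tested.

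Neither adaptor passed 2-fold. Myd88, the adaptor of nearly all Toll-like receptors and of the interleukin-1 receptor family, gave 2004 ± 200 and 1985 ± 198. After scaling, this is a difference of 0.36 ± 0.20, and it lay above 0 under every scaling tried, between 0.10 and 0.53. Ticam1, which encodes TRIF, gave 298 ± 30.1 and 237 ± 24.0, a difference of 0.04 ± 0.21 that lay on either side of 0 over the scalings, from -0.22 to 0.21. Each adaptor has 1 probe on the array.

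**Figure D2:**
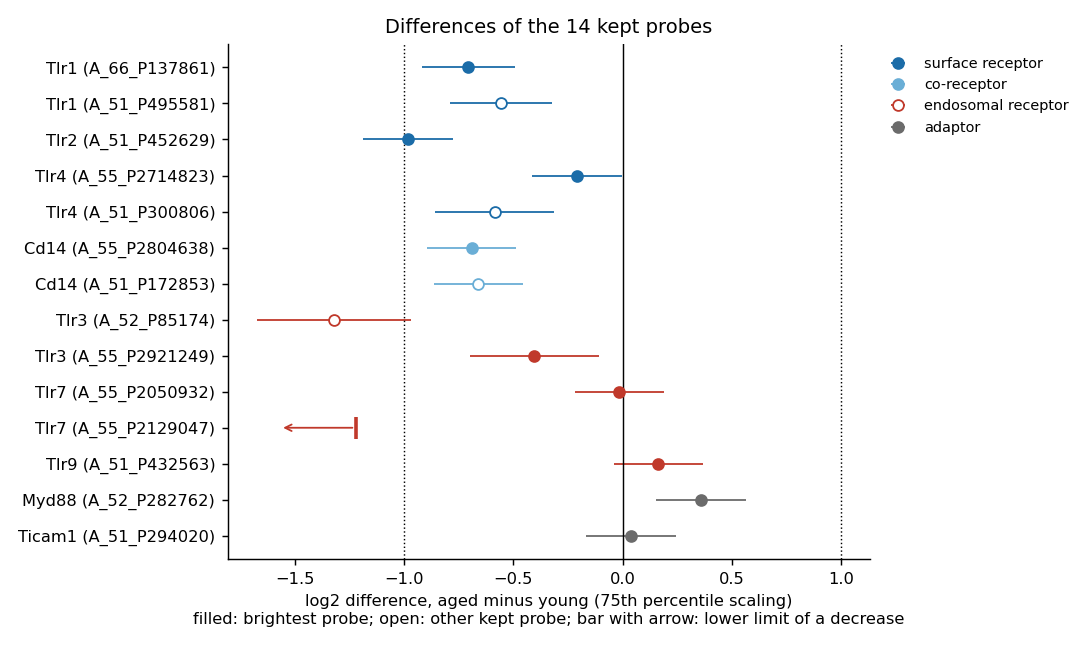
Log2 difference, aged minus young, of the 14 kept probes with the combined software error of both spots, coloured by role, with dotted lines at 2-fold. Filled points are the brightest probe of a gene, open points the others, and the bar with an arrow is the limit of -1.22 for the Tlr7 probe that was not measured on the aged array.

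By the brightest probe, 0 of the 9 measured genes were 2-fold higher and 0 were 2-fold lower in aged cells. Over all genes measured on both arrays, 1.52% were higher and 3.05% were lower by 2-fold. Counted by probe, 2 of the 14 kept probes were 2-fold lower, 1 of Tlr3 as measured and 1 of Tlr7 by its limit, where 4.79% of all kept probes were lower as measured or by a limit. The median difference of the 9 genes was -0.21, with 6 below and 3 above 0, and the median over all genes measured on both arrays was 0.09. The median of -0.21 is the value of the distant Tlr4 probe, and with the RefSeq transcript probe of Tlr4 in its place it was -0.40. In order from the lowest, the differences were those of Tlr2, Tlr1, Cd14, Tlr3, Tlr4, Tlr7, Ticam1, Tlr9 and Myd88. Neighbours in this order differed by less than the sum of their errors, whereas Tlr2 and Myd88 at the ends differed by more than the sum of theirs.

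Surface and endosomal receptors were set side by side. By the brightest probe, the median difference was -0.71 over the 3 measured surface receptors and -0.01 over the 3 endosomal ones, a gap of -0.69. The gap closed when other probes were used. With the mean over the kept probes of each gene, the medians were -0.63 and -0.62 when the dim aged signal of Tlr7 was raised to the lowest signal well above background. With that dim signal taken as it stands, which the probe does not measure, the endosomal median was -0.76. With the second brightest kept probe in place of the brightest, they were -0.59 and -0.58, and Tlr7 dropped out because its second probe was not measured on the aged array. The gap lay at -0.40 or further below 0 in all settings that keep the brightest probes. Most of these settings could not move it. A shift shared by all probes cancels in the gap, and other settings keep the same probes and scaling. With 3 genes on each side, a difference between surface and endosomal receptors is therefore not shown by these arrays.

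**Figure D3:**
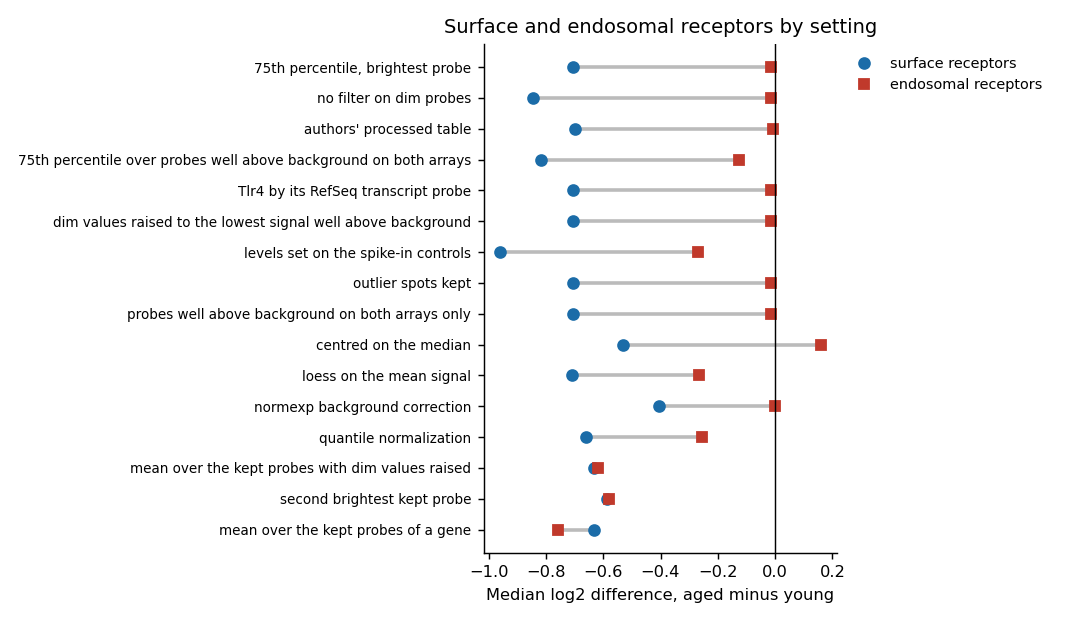
Median log2 difference, aged minus young, of the surface receptors (circles) and the endosomal receptors (squares) under 16 settings. Shifts shared by all probes cancel in the gap between circle and square, so many lines show the same gap by construction. The circle lies left of the square by 0.40 or more except in the last 3 lines, which use other probes of the endosomal receptors, with medians of -0.63 and -0.62, -0.59 and -0.58, and -0.63 and -0.76, the last resting on a dim aged Tlr7 signal.

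Some scalings shifted all members alike and others moved them apart. Over 7 scalings, 1 of them with another background correction (normexp), the Tlr2 difference lay between -1.24 and -0.81 and was past 2-fold in 4 of them. Cd14 lay between -0.95 and -0.52, and Tlr1 between -0.96 and -0.41. The brightest Tlr4 probe lay between -0.46 and -0.03, and that of Tlr3 between -0.66 and 0.00. The second probes of Tlr3 and Tlr7 were past 2-fold in 6 of the 7 scalings each, the latter by its limit, and with normexp they gave -0.27 and -0.13. Tlr7 by its brightest probe lay between -0.30 and 0.16. Scaling on the spike-in controls, known RNAs added at labelling, lowered every difference by 0.26, and the median of all genes with it. Centring each array on its median raised every difference by 0.17, and taking the percentile over probes measured on both arrays lowered them by 0.11. Quantile normalization, in contrast, brought Tlr3 nearer to 0, at -0.26, and Tlr7 further below it, at -0.30.

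**Figure D4:**
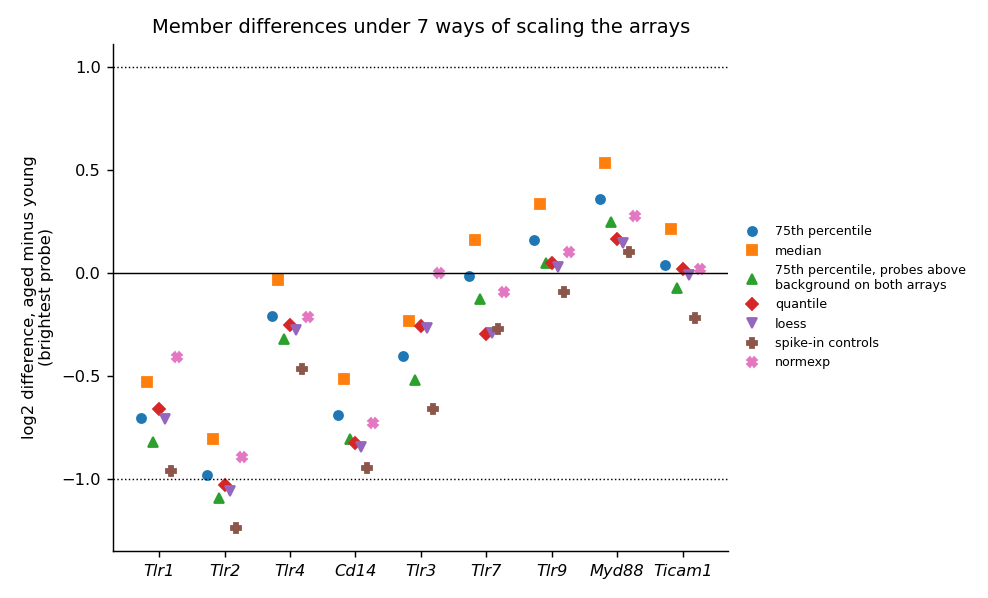
Log2 difference, aged minus young, of the brightest probe of the 9 measured genes under 7 ways of scaling the arrays, 1 symbol for each. Tlr2 lies between -1.24 and -0.81, around the dotted line at 2-fold, and Myd88 lies above 0 throughout.

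The other genes of the pathway were taken from a list of 60 genes, 56 of which stood well above background on 1 or both arrays. Of these, 4 were higher and 9 lower in aged cells by 2-fold or more, where 2.53% of all kept genes were higher and 5.14% were lower as measured or by a limit. All 13 were measured on both arrays, and the median over the 53 measured on both was -0.11.

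Among the other receptors, Tlr13, a sensor of bacterial ribosomal RNA, had the brightest signal on the young array, with 228 ± 23.1 there and 131 ± 13.6 in aged cells, a difference of -0.42 ± 0.21. Its other probe gave 152 ± 13.8 on the young array and was not well above background on the aged array, which makes it at least 8.26-fold lower. Tlr6, which pairs with TLR2 to bind diacylated lipoproteins and is the neighbour of Tlr1 on chromosome 5, gave 51.1 ± 5.93 and 28.7 ± 4.17, a difference of -0.46 ± 0.27. Tlr8, the neighbour of Tlr7 on the X chromosome, gave 63.5 ± 7.13 and 31.3 ± 4.53, a difference of -0.65 ± 0.26. Tlr6 and Tlr8 were named after their values had been seen, as was Unc93b1, the chaperone that carries the endosomal receptors to the endosome. Unc93b1 gave 1012 ± 101 and 460 ± 46.1, a difference of -0.77 ± 0.20. Hsp90b1, the chaperone that folds most Toll-like receptors, had a difference of 0.33 ± 0.20, which turned sign over the scalings, down to -0.25.

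Among the other adaptors and the kinases, no gene passed 2-fold. Tirap, the bridge between MyD88 and the surface receptors, differed by 0.27 ± 0.20. Of the 13 kinases and ubiquitin ligases measured, all lay between -0.53 and 0.47, with Irak2, a kinase recruited by MyD88, at 0.25 ± 0.20 by its brightest probe and at -0.80 ± 0.24 by another. Ly96, which encodes MD-2, the partner of TLR4 that binds lipopolysaccharide, was also named after its values had been seen. Its brightest probe holds an alternating run of 31 bases and differed by -0.22 ± 0.20, and its other probe differed by 0.48 ± 0.23.

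Of the 9 transcription factors, Rel, a subunit of NF-kappaB, was lower by 2-fold, with 397 ± 39.9 and 124 ± 13.0, a difference of -1.30 ± 0.21. Irf8, an interferon regulatory factor of myeloid cells and B cells, differed by -0.99 ± 0.21 by its brightest probe, past 2-fold in 4 of the 7 scalings, and by -0.27 ± 0.28 by the other. Irf5, which acts downstream of MyD88, differed by -0.87 ± 0.27 by its brightest probe and by -2.16 ± 0.33 by the other. Irf5 and Irf8 were named after their values had been seen. Fos, a subunit of AP-1, had the brightest probe of this group and differed by 0.00 ± 0.20. The inhibitors were lower by 2-fold in 3 of the 9 genes kept. Il1rl1, the interleukin-33 receptor that can hold back MyD88, went from 94.2 ± 10.1 to 20.9 ± 4.14, a difference of -1.80 ± 0.32. Ly86, which encodes MD-1, the partner of the inhibitory receptor CD180 on B cells and macrophages, went from 1063 ± 106 to 269 ± 27.1, a difference of -1.61 ± 0.20. Tnfaip3, a ubiquitin-editing brake on NF-kappaB, differed by -1.31 ± 0.20. Atf3, a repressor of Toll-like receptor targets and the brightest inhibitor on the young array, differed by 0.01 ± 0.20. The differences of Fos, Atf3 and Irak2 lay on either side of 0 over the scalings.

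The targets of the pathway went both ways. The neutrophil chemokine Cxcl1 was the brightest target on the young array and went from 3455 ± 345 to 8478 ± 848, a difference of 1.67 ± 0.20. Lcn2, an iron-sequestering protein of epithelia and neutrophils, differed by 1.65 ± 0.21. Il12b, a subunit of interleukins 12 and 23, differed by 1.14 ± 0.23, and Nos2, the inducible nitric oxide synthase, by 1.12 ± 0.21. Lower were the chemokines Ccl5 (-1.73 ± 0.20), Ccl2 (-1.64 ± 0.20) and Cxcl2 (-1.38 ± 0.21), and the cytokines Tnf (-1.42 ± 0.21) and Il1b (-1.13 ± 0.20). Both measured Il1b probes passed 2-fold, whereas the other Tnf probe differed by -0.42 ± 0.21. Il12b and Nos2 passed 2-fold in 5 of the 7 scalings each, Il1rl1 and Il1b in 6, and the other 9 genes in all 7.

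**Figure D5:**
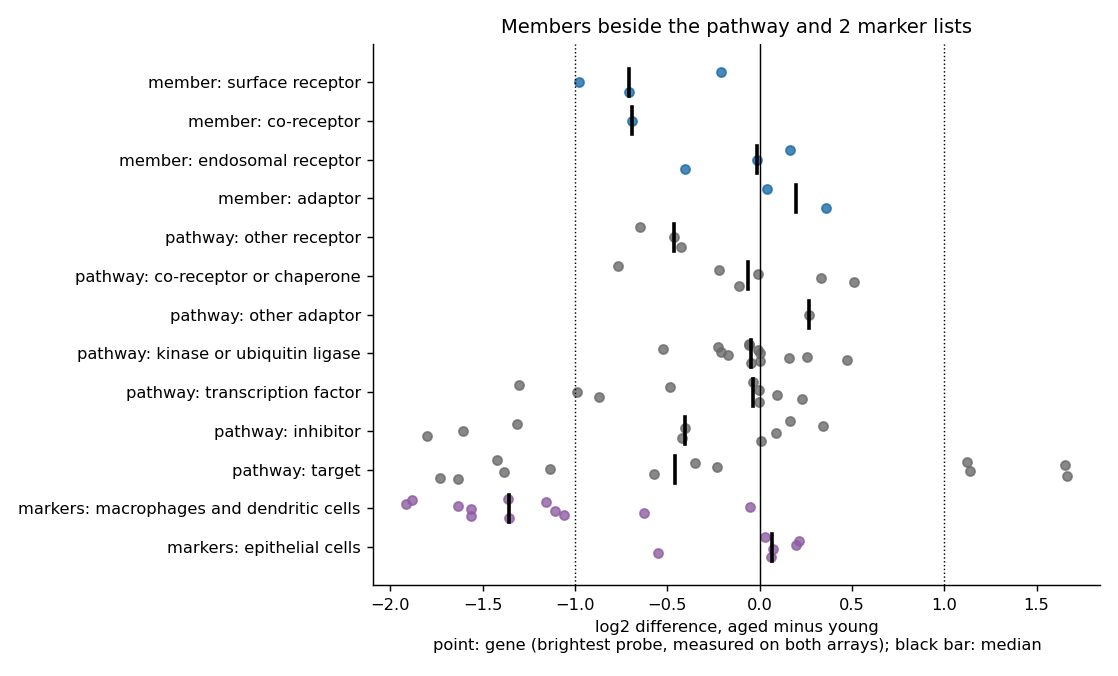
Log2 difference, aged minus young, of the genes measured on both arrays, by role (points), with the median of each group (black bars) and dotted lines at 2-fold. The targets spread from -1.73 to 1.67, the kinases stay between -0.53 and 0.47, and the macrophage and dendritic cell markers have a median of -1.36.

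Cell type markers were read on the same arrays, since Toll-like receptors and Cd14 are abundant in macrophages and dendritic cells. In these bulk samples, fewer cells of a type and less RNA per cell cannot be told apart. Of the epithelial markers, Epcam gave 1778 ± 178 and 1573 ± 157, a difference of 0.20 ± 0.20 that was below 0 with the spike-in controls, and Krt8 differed by 0.03 ± 0.20, with either sign over the scalings. Of the 7 epithelial markers listed, 6 were measured on both arrays, with a median of 0.07 and differences from -0.55 to 0.21. The remaining 1 was measured only in young cells, with a limit short of 2-fold. Over the scalings, 0 or 1 of the list was 2-fold lower. Of 12 macrophage and dendritic cell markers, 10 were at least 2-fold lower in aged cells, with a median of -1.36, and between 7 and 11 were lower over the scalings. The summed signal of these 12 probes, on which the brightest weigh most, was 197 in young and 103 in aged cells in units of the 75th percentile. The Itgam probe, the brightest of the 12 on the aged array with 9870 ± 987, holds an alternating run of 20 bases. It differed by -0.05 ± 0.20, and Itgam was named after its values had been seen. Adgre1 differed by -1.36 ± 0.21, Cd68 by -1.06 ± 0.20 and Csf1r by -0.62 ± 0.20. The 12 differences ran from -1.91 to -0.05. Most of these markers were thus lower in aged cells together with Tlr1, Tlr2 and Cd14, and their part in the lower receptor values was not tested.

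Markers of other cell types were mixed. The B cell marker Cd79a was well above background on neither array. Of the 6 B cell markers listed, 4 were kept, and 1 of these was lower and 1 higher by 2-fold or more, as measured or by a limit. Over the scalings, 0 to 2 were lower and 0 or 1 was higher. Siglech, of plasmacytoid dendritic cells, a cell type rich in Tlr7 and Tlr9, differed by -0.19 ± 0.20 by its brightest probe. This probe gave 63815 in young and 43298 in aged cells. Its other 2 probes were well above background on neither array, with 9.14 and 3.19 in young cells. The probes of Siglech thus disagree on its level, and whether the brightest reads plasmacytoid dendritic cells was not tested. None of the 5 markers of these cells passed 2-fold. Of 7 neutrophil markers, 6 were kept. Of these, 3 were measured only in aged cells and were higher by limits of 2-fold or more. Over the scalings, 1 to 3 were higher, and 2.53% of all kept genes were higher as measured or by a limit. S100a9 was at least 14.04-fold and S100a8 at least 3.98-fold higher. Csf3r differed by -0.21 ± 0.20, and Ly6g by -0.18 ± 0.24, with either sign over the scalings for Ly6g. Camp was measured only in young cells, with a limit short of 2-fold. Cd3e of T cells differed by 0.56 ± 0.20, whereas Cd3g was at least 2.06-fold lower, and the median of the 4 T cell markers measured on both arrays was 0.31. Cd3g was past 2-fold in 3 of the 7 scalings. S100a8, S100a9, Csf3r, Camp and Cd3g were named after their values had been seen. Pecam1 of the endothelium differed by 0.10 ± 0.22, with either sign over the scalings, and the median of the 5 endothelial markers measured on both arrays was -0.52, between -0.78 and -0.24 over the scalings. Of 6 fibroblast markers, 4 were at least 2-fold lower, with Col1a1 at -1.81 ± 0.27. The part of any of these cell types in the members' values was not tested.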

How the data were processed

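The authors labelled RNA of EpCAM+ cells with Cy3, hybridized it to Agilent SurePrint mouse arrays and scanned them with Feature Extraction 12.0.3.1. The deposited scanner files hold the intensity of each spot after background subtraction, per the file headers, with an error, a mark for spots well above background and a mark for outliers. The authors' processed table holds the same signal divided by 1 constant per array, and was used as an alternative. Coordinates are those of the files (mm9).

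Each log2 intensity was set against the 75th percentile of its array, taken over 59305 spots that are no controls. Outlier spots on either array (90 and 93) were left out, none of them in the set, and repeated spots were averaged. Of 56597 probes, 30907 (21346 genes) were marked as well above background on 1 or both arrays and were kept. The mark was on 55.4% of spots (young) and 50.8% (aged), and the number of arrays limits the precision. Where 1 array was not well above background, the limit took for that array the lowest marked signal or, if higher, the signal of the probe itself. A gene took the values of its brightest kept probe by mean log2 signal. No test and no p-value was possible with single arrays, which lay on 1 slide.

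The text names all 10 genes of the set with every probe, pathway genes past 2-fold, the brightest pathway gene of each role on the young array, and 12 defining markers, 1 of which is not reported here, with exceptions marked. The members, the lists and the rule were chosen with earlier results of these data known. There were 11 alternatives listed at the outset and 4 added after seeing the data, namely the second brightest probe, dim values raised to the lowest marked signal, the mean of the kept probes with dim values raised so, and Tlr4 by its RefSeq transcript probe. Gene names and neighbours came from RefSeq (GRCm38.p6), to which 33767 probes matched by accession. R 4.3.3 with limma 3.58.1, Python 3.11.15, numpy 2.4.6, pandas 2.3.3 and matplotlib 3.10.9 were used. The percentile scaling, the choice of the brightest probe and the 2-fold calls were tested on simulated data. The simulation left out the other scalings, and its changed genes were bright, so that limits were hardly tried.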

Additional observations from a re-analysis of the deposited data

How the results depend on the processing

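Over 15 alternatives, 135 values of single members were recomputed. Of these, 114 stayed within the software's error of the value given and 21 moved by more, and the endosomal median, close to 0, was 0.16 with centring on the median. Part of the 114 could not move by construction. The filter and outlier settings and the raised dim values kept the same brightest probes and scaling. Genes with a single kept probe could not change with the choice of probe. The 114 are therefore no measure of stability. The number of members 2-fold lower was 1, Tlr2, with the percentile over probes measured on both arrays, quantile normalization, loess or the spike-in controls, 1, Tlr5, without a filter on dim probes, and 2, Tlr3 and Tlr7, with the second brightest probe. The median of the members was -0.46 with the spike-in controls, -0.63 with the mean of the kept probes (-0.62 with dim values raised) and -0.57 with the second brightest probe. The surface receptors' median was -0.96 with the spike-in controls and -0.41 with normexp. The endosomal median was -0.26 with quantile normalization, -0.27 with loess, -0.27 with the spike-in controls, -0.76 with the mean of the kept probes, a value that takes a dim aged Tlr7 signal as it stands, -0.62 when such values were raised, and -0.58 with the second brightest probe. Of the pathway genes, 2 were higher with the spike-in controls, 2 with normexp, and 14 were lower with the mean of the kept probes. The causes were not tested, apart from the construction of each setting.

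Over all genes measured on both arrays, the higher share of those past 2-fold was 33.2%. It was 52.7% with centring on the median, 13.9% with the spike-in controls and 23.5% with the percentile over probes measured on both arrays. Counts of kept genes past 2-fold, as measured or by a limit, were 539 higher and 1098 lower, and 182 and 297 with normexp. No filter gave 1685 and 2416. No paired analysis was possible because each age has 1 array, and no array could be left out. Signals under about 14 leave no fold for Tlr5 and only a limit for the second Tlr7 probe.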
